A study of Oryctolagus cuniculus with 6 samples.

Results

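The genes described here carry array descriptions of proteins of the cytosolic ribosome, the particle that translates every messenger RNA of the cell. They were taken as all non-control probes whose array description named a ribosomal protein of the large (L) or small (S) subunit and neither a mitochondrial protein nor a kinase. This found 115 probes for 35 genes among 43603 probes of the array, with 25 genes described as L proteins and 10 as S proteins. All 35 genes were among the 20209 features tested, and all were well above background on all 6 arrays, so none was lost to the filter on dim probes. The tissue was newly formed tissue from defects 5 mm wide in the parietal bone of male New Zealand White rabbits aged 4 months. In each of the 24 rabbits of the study, the pair of right defects received 0.2 g of HPD (human particulated dentin, particles of the hard tissue of teeth used as a graft) and the other pair stayed unfilled. The arrays were HPD and control on days 3, 5 and 7 after surgery, with 1 array per treatment and day. Whether RNA of several rabbits was pooled for an array is not given in the sources used here.

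A ribosome is built from a small subunit, which reads the messenger RNA, and a large subunit, which joins the amino acids and lets the new chain out through a tunnel. Most ribosomal protein mRNAs begin with a 5′ terminal oligopyrimidine (TOP) tract, through which the kinase mTOR and the RNA-binding protein LARP1 set their translation together with that of elongation factors. In a healing wound, cells that divide and secrete collagen matrix are known to have a high demand for ribosomes. Ribosomal protein genes have many processed copies in mammalian genomes, and array probes for them can also meet transcripts of such copies.

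Levels below are log2 processed intensity minus the 75th percentile of the same array, and differences are HPD minus control or later minus earlier day on that scale. All 6 arrays were of the same design; 78.1% to 86.4% of their spots were well above background and 0 were saturated. The matrix markers of the labelled tissue were present: COL3A1, a fibrillar collagen of early repair, had levels of 8.32 with HPD and 8.08 in control on day 3, 9.01 and 9.66 on day 5, and 9.76 and 10.48 on day 7. COL1A1, the main collagen of bone, had 4.27 with HPD and 4.36 in control on day 3, 4.03 and 5.29 on day 5, and 6.48 and 5.33 on day 7. Both day 3 arrays lay on slide 1 and the other 4 arrays on slide 2, so day 3 against later days cannot be told apart from the slide, while HPD and control of 1 day always shared a slide.

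Of the 35 genes, 6 carried a gene symbol in the array description (RPL5, RPL10, RPL23A, RPL35A, RPS9 and RPS20), 19 were named from their gene number through a RefSeq table, and 10 had a gene number only. The descriptions of 28 genes held the word "-like". The symbols from the RefSeq table include those of relatives rather than of the standard gene. RSL24D1, described on the array as L24-like, is known in human cells as an assembly factor of the large subunit, and RPL7L1 is a relative of RPL7. RPL26L1 and RPL36AL are paralogs of RPL26 and RPL36A. LOC100338464, described as L22 like 1, is a pseudogene in that table. The ubiquitin fusion genes were represented by RPS27A, by LOC100343047, described as ubiquitin fused to L40, and by FAU, whose product joins a ubiquitin-like protein to S30. By symbol, the members covered 13 of 45 listed large-subunit names and 8 of 34 small-subunit names, with genes known by number only not counted. No member was a P stalk protein.

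Probe identity bears on how far these copies can be told apart, so the probes the results turn on are shown here, as printed in the array files (5′ to 3′, 60 bases, oryCun2 coordinates). The first pair is the brightest probe of RPL35, a large-subunit protein beside the exit of the tunnel (chr11:56249146-56249205, plus strand), and that of the L35-like gene LOC100347839 (chr17:5946283-5946342, plus strand). Capitals mark the 2 bases at which they differ, C4T and A46G, counted from the 5′ end with the RPL35 base first.
RPL35: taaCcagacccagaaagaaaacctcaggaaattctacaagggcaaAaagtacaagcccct
LOC100347839: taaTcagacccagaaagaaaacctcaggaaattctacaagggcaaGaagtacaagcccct
These probes share an unbroken stretch of 41 bases, and whether each probe reads its own transcript or both cannot be told from the arrays.

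The second set is the 5 overlapping probes of the S26-like gene LOC100351264 on chromosome 13, minus strand, shown because they did not move together. Capitals mark the 30 bases that all 5 share; the lowest coordinates of the 5 lines are 35356081, 35356080, 35356054, 35356052 and 35356051.
Probe A_04_P035641: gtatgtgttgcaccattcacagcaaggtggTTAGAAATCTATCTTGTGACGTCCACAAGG
Probe A_04_P035640: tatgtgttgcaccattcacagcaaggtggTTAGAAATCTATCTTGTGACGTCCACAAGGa
Probe A_04_P035639: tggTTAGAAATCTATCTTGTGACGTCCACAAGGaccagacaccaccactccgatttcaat
Probe A_04_P035638: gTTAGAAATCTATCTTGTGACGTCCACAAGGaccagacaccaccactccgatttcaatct
Probe A_04_P035637: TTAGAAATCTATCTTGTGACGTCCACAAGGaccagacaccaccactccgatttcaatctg

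The third set is the brightest probes of RPS18, the member with the lowest HPD effect, of RPL4, the lowest L gene after RPL35, of the member with the widest range over arrays (LOC100338464) and of the member with the largest day 5 minus day 3 difference (RPL34). They lie at chr12:23679492-23679551 (plus strand, RPS18), chr17:5900235-5900500 (plus strand, RPL4), chr14:65759186-65759245 (minus strand, LOC100338464) and chr14:105259197-105259256 (plus strand, RPL34). The RPL4 probe covers 266 genomic bases with its 60 letters, so the letters are not contiguous in the genome, as for 4 of the 35 brightest probes, RPL4 included. No base is marked in these.
RPS18: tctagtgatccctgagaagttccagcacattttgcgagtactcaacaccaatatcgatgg
RPL4: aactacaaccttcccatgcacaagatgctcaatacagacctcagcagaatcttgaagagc
LOC100338464: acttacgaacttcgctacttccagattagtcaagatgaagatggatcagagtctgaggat
RPL34: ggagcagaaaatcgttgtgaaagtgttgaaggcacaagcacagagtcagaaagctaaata
The brightest probes of 17 of the 35 genes were listed with 2 or more transcripts in the array annotation. Whether these transcripts belong to 1 gene or to several was not examined, so the values are uncertain as values of 1 gene. A probe listed with 1 transcript, such as that of LOC100347839, is not thereby shown to read 1 gene only.

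Most of the 35 genes followed a like pattern over the 6 arrays. Relative to each gene's own mean, the median level was -0.41 with HPD and -0.10 in control on day 3, 0.12 and 0.26 on day 5, and -0.02 and 0.13 on day 7. The HPD array of day 3 was the lowest array for 32 of the 35 genes, and the control array of day 5 was the highest for 23. For the other 3 genes (RPL3, RPL26L1 and RSL24D1) the HPD array of day 7 was the lowest. Over all features tested the same medians were 0.10 with HPD and -0.06 in control on day 3, -0.00 and -0.09 on day 5, and 0.05 and -0.01 on day 7. The range of a gene over the 6 arrays was small, from 0.30 (RPS20) to 1.21 (LOC100338464), with a median of 0.69.

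**Figure D1:**
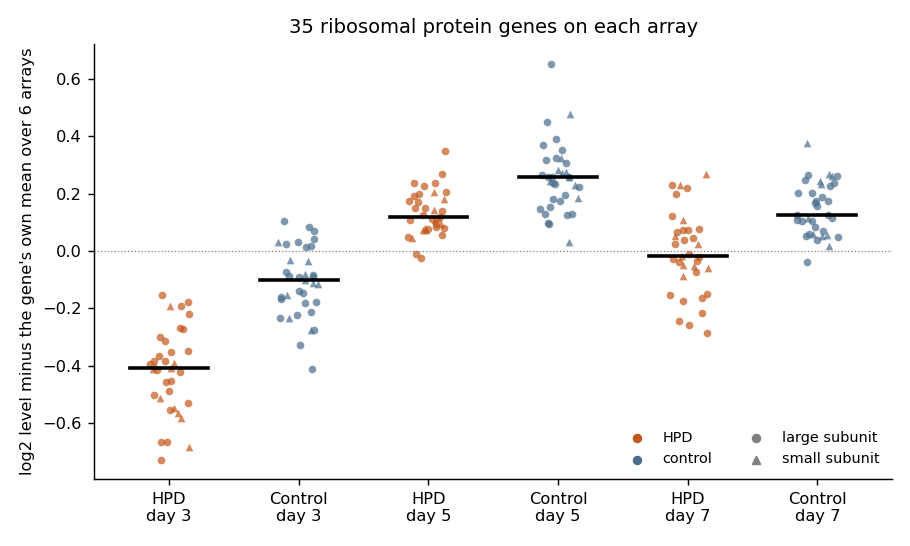
Level of each of the 35 ribosomal protein genes on each array, as log2 minus the gene's own mean over 6 arrays (vertical axis), for HPD (orange) beside control (blue) on days 3, 5 and 7. Circles are large-subunit and triangles small-subunit genes, bars are medians; the HPD array of day 3 has the lowest median (-0.41) and the control array of day 5 the highest (0.26).

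The first comparison asked whether the graft altered ribosomal protein mRNAs across the 3 days. In the mean of the 3 days, 34 of the 35 genes were lower with HPD, with a median difference of -0.17, a range from -0.42 to 0.03, and a median of 0.09 over all features tested. The HPD array was below control on all 3 days for 25 of the 35 genes, 18 of 25 L genes and 7 of 10 S genes, against 10.9% of all features, and above control on all 3 days for none, against 26.4%. No gene reached an adjusted p of 0.05 (limma, 0 of 35 members, where 0% of all features were called; smallest adjusted p 0.558). On data simulated with known changes, this fit returned the sizes put in but passed no changed feature at the adjusted threshold. Those changes were 2-fold or more, larger than any member's, with no day differences and with spreads shuffled over features. The lack of calls therefore does not show that the genes did not differ. At an unadjusted p under 0.05 there were 2 members, RPS18 and RPL4, both lower, where 8.51% of all features lay and 1.4% were lower. The direction depends in part on the scaling: under quantile normalization the median was -0.06 and 7 of the 35 genes changed sign, and 16 rather than 25 were lower on all 3 days.

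RPS18, a protein of the head of the small subunit, had levels of 6.48 with HPD and 7.05 in control on day 3, 7.28 and 7.64 on day 5, and 7.10 and 7.42 on day 7. HPD was the lower of both on each day, but its day 5 array lay above the day 3 control array. The mean difference was -0.42 ± 0.14 (SE, 6 arrays; limma adjusted p 0.558, unadjusted 0.034), the lowest of the 35 members.

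RPL4, which lines the exit tunnel, had 5.90 with HPD and 6.29 in control on day 3, 6.24 and 6.59 on day 5, and 6.10 and 6.47 on day 7. The 3 HPD arrays all lay below the 3 control arrays, and the difference was nearly the same on each day (-0.39, -0.35 and -0.37). Its mean was -0.37 ± 0.13 (SE, 6 arrays), with a limma adjusted p of 0.558. RPL3, which reaches towards the peptidyl transferase centre, was the other member whose groups did not overlap, with 4.49 with HPD and 4.78 in control on day 3, 4.67 and 4.88 on day 5, and 4.46 and 4.79 on day 7. Such a separation with HPD below occurred in 2.14% of all features.

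The L35 pair gave like values from nearly the same probe letters. RPL35 had 8.003 with HPD and 8.68 in control on day 3, 8.78 and 9.02 on day 5, and 8.63 and 8.90 on day 7. LOC100347839 had 7.42 with HPD and 7.97 in control on day 3, 8.25 and 8.59 on day 5, and 8.22 and 8.41 on day 7. In both, the HPD array of day 3 was the lowest of all, and the mean differences were -0.40 ± 0.16 and -0.36 ± 0.15 (SE, 6 arrays).

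RPS9, a protein of the small-subunit body near the mRNA entry, had 7.39 with HPD and 7.82 in control on day 3, 8.03 and 8.22 on day 5, and 7.85 and 8.31 on day 7. LOC100338464, the L22-like 1 entry, had 7.08 with HPD and 7.45 in control on day 3, 7.83 and 8.28 on day 5, and 7.48 and 7.67 on day 7. These were the remaining members with mean differences near those of the L35 pair (-0.36 ± 0.14 for RPS9, -0.34 ± 0.14 for LOC100338464; SE, 6 arrays), and in each the HPD array was lower on every day. A further feature with the symbol RPS9, outside the description rule and far dimmer, went the other way, with 0.58 with HPD and 0.42 in control on day 3, 0.53 and 0.41 on day 5, and 0.74 and 0.50 on day 7 (mean difference 0.17 ± 0.13, SE, 6 arrays).

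At the other end of the genes that kept 1 sign on all 3 days were RPL5 (-0.07 ± 0.13), which carries 5S rRNA into the large subunit, RPL23A (-0.10 ± 0.13), a docking site at the tunnel exit, LOC100351893 (L36-like, -0.14 ± 0.14), RPL7A (-0.14 ± 0.13), RPL37A (-0.15 ± 0.13) and LOC100356559 (L39-like, -0.15 ± 0.13), all SE over 6 arrays. Each difference was about 1 SE from 0, or less. RPL5 had 8.32 with HPD and 8.43 in control on day 3, 8.68 and 8.77 on day 5, and 8.66 and 8.67 on day 7. These values are from its brightest probe, and its other probes gave lower HPD effects of -0.26, -0.20 and -0.25. Under quantile normalization RPL5, RPL23A, LOC100351893 and LOC100356559 were higher with HPD instead. LOC100343047, the L40 fusion, was the 1 gene higher with HPD in the mean, at 0.03 ± 0.15, and was lower under the median shift.

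Day by day, all 35 genes were lower with HPD on day 3 (median -0.30, against 0.14 for all features), 29 on day 5 (median -0.11, against 0.09) and 30 on day 7 (median -0.17, against 0.06). With HPD, 35.5% of all features were lower on day 3, 41.2% on day 5 and 43.6% on day 7. Quantile normalization gave medians of -0.073, -0.040 and -0.11 on the 3 days, and the median shift -0.48, -0.24 and -0.27. There was 1 array per treatment and day, so a single day has no test. No member was 2-fold apart on any day, while 7.59% of features were on day 3, 7.76% on day 5 and 3.85% on day 7.

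The lowest values of day 3 were those of RPL35 (-0.68, a 1.60-fold difference), RPS18 (-0.57) and LOC100347839 (-0.56), and the values nearest to 0 those of RPL5 (-0.11), LOC100342098 (L13-like, -0.11) and RPS20 (-0.16). The place of RPL5 rests on its brightest probe, as its other probes gave -0.46, -0.33 and -0.37 on day 3. On day 5 the lowest were LOC100338464 (-0.46), RPS18 (-0.36) and RPL4 (-0.35), and the highest LOC100343047 (0.22), RPL36AL (0.11), a paralog of RPL36A, and LOC100358359 (L36a-like, 0.11). On day 7 RPS9 (-0.46), RPL7 (-0.39) and RPL36AL (-0.38) were lowest, and LOC100352531 (S11-like, 0.25), LOC100342098 (0.11) and RPL34 (0.04) highest. RPL36AL thus lay near the top on day 5 and near the bottom on day 7. Fitted as a linear change of the HPD difference over the 4 days, 28 of the 35 genes became less negative or more positive (median 0.14, against -0.09 for all features), with 0 members and 0% of features called by limma (smallest adjusted p 0.9999) and 0 members at an unadjusted p under 0.05, where 3.21% of features lay. Under quantile normalization that median was -0.06 and 16 genes changed sign. The size of this linear change is the day 7 difference minus the day 3 difference, so the day 5 arrays do not enter it.

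**Figure D2:**
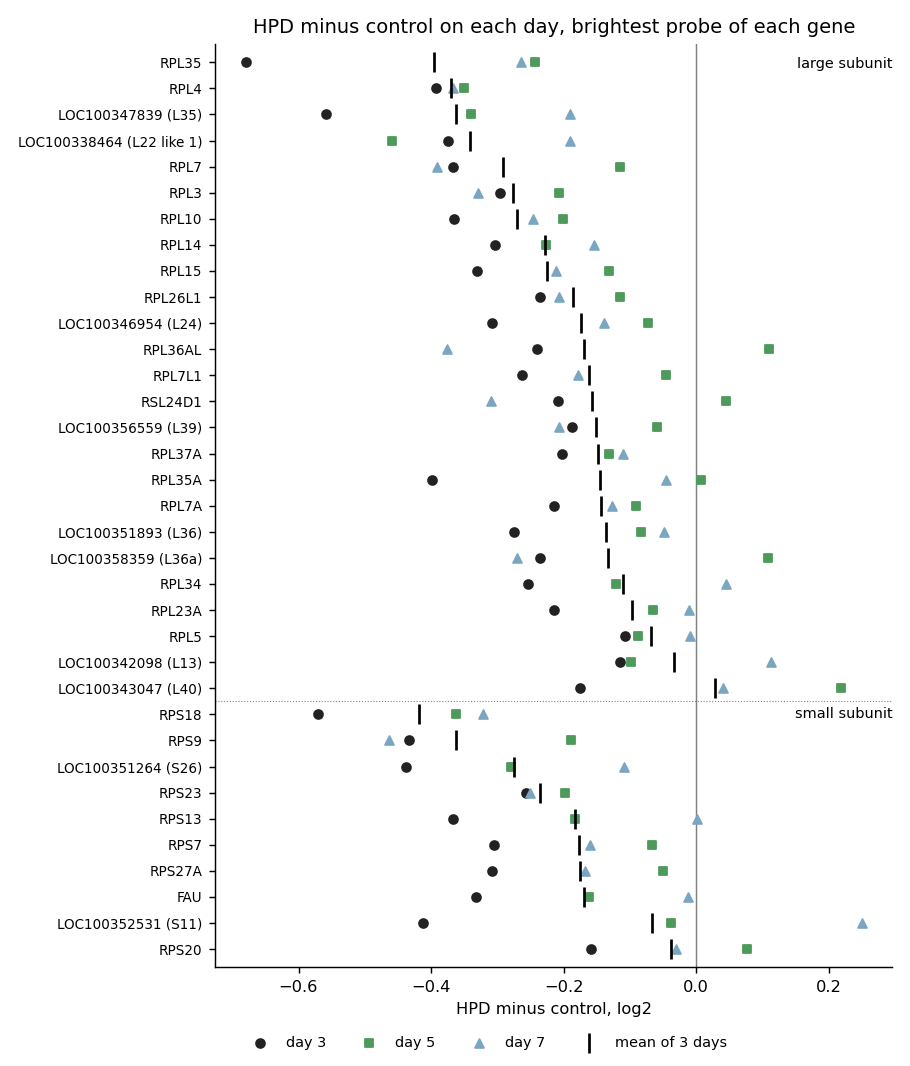
HPD minus control (log2, horizontal axis) for each of the 35 genes by its brightest probe, on day 3 (black circle), day 5 (green square) and day 7 (blue triangle), with a bar at the mean of the 3 days. Large-subunit genes stand above the dotted line and small-subunit genes below it, and all 35 day 3 points lie left of 0.

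Large- and small-subunit genes gave near values. The median HPD effect was -0.16 for the 25 L genes and -0.18 for the 10 S genes, and the day 3 medians were -0.26 for L genes and -0.35 for S genes. Of the ubiquitin fusions, RPS27A was at -0.18 ± 0.14, FAU at -0.17 ± 0.14 and LOC100343047 at 0.03 ± 0.15 (SE, 6 arrays). The value of LOC100343047 was less than its SE from 0, and differences among these genes were not tested. FAU had 6.24 with HPD and 6.57 in control on day 3, 6.89 and 7.05 on day 5, and 7.04 and 7.05 on day 7, so its difference was near 0 by day 7. RSL24D1, the assembly factor, had 3.28 with HPD and 3.49 in control on day 3, 3.66 and 3.61 on day 5, and 3.20 and 3.51 on day 7. Leaving out RSL24D1, RPL7L1 and LOC100338464, a choice made after seeing the data, left the median at -0.17, and the 6 genes with a symbol in the description gave -0.12.

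The next comparison asked how these mRNAs differed between days. On day 5 all 35 genes were higher than on day 3 in both HPD and control defects, which was so for 25.5% of all features. The median difference was 0.44, against -0.06 for all features, and it was 0.54 in HPD and 0.34 in control defects. Both day 5 arrays lay above both day 3 arrays for 33 genes, against 19.5% of features; the exceptions were RPL3 and RPL4. None of the 35 genes passed an adjusted p of 0.05 (limma, smallest adjusted p 0.210), a threshold passed by 1 feature or 0.00495% of the array. At an unadjusted p under 0.05 there were 17 members, all higher, where 16.3% of features lay and 6.25% were higher. The slide changed between these days as well.

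RPL34, a large-subunit protein, had 9.12 with HPD and 9.24 in control on day 5, against 8.18 and 8.44 on day 3. Its difference of 0.87 ± 0.17 (SE, 6 arrays; limma adjusted p 0.210) was the highest of the members. LOC100338464 (0.79 ± 0.17), LOC100347839 (0.73 ± 0.18), RPS18 (0.70 ± 0.17), RPS7 (0.67 ± 0.17) and RPL7A (0.65 ± 0.16) came next, with SE over 6 arrays. RPS7, a protein of the small-subunit body, had 8.78 with HPD and 8.85 in control on day 5, against 7.99 and 8.30 on day 3.

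The smallest day 5 differences were those of RPL3 (0.14 ± 0.16), RPL7L1 (0.16 ± 0.17), RPS20 (0.18 ± 0.17), RPL26L1 (0.21 ± 0.16), RSL24D1 (0.25 ± 0.18) and LOC100356559 (0.29 ± 0.16), SE over 6 arrays. For RPS20 and LOC100356559 the brightest probe gave the lowest value of the gene's probes, which ran up to 0.46 and 0.64. RPL7L1, RPL26L1 and RSL24D1 are relatives of ribosomal proteins rather than the standard gene for each. RPL7L1 had levels of -1.35 with HPD and -1.30 in control on day 5, against -1.62 and -1.36 on day 3, and was the 1 member below the 75th percentile. RPL26L1, a paralog of RPL26, had 4.35 with HPD and 4.46 in control on day 5, against 4.08 and 4.31 on day 3. Under quantile normalization the median day 5 difference was 0.11 and 6 genes (LOC100356559, RPL3, RPL5, RPL7, RPL35A and RPS20) changed sign. With normexp background correction all features had a median of 0.13, and the members stood 0.27 above the array rather than 0.50.

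On day 7, 32 of the 35 genes were higher than on day 3 in both treatments, with a median difference of 0.31 against -0.01 for all features. Of all features, 34.3% were higher in both treatments. The exceptions were RPL26L1 (-0.11 ± 0.16), RSL24D1 (-0.03 ± 0.18) and RPL3 (-0.01 ± 0.16), SE over 6 arrays. The members with the highest differences were RPL34 (0.75 ± 0.17), FAU (0.64 ± 0.17), LOC100347839 (0.62 ± 0.18), RPS7 (0.62 ± 0.17), LOC100343047 (0.59 ± 0.18) and LOC100346954 (L24-like, 0.57 ± 0.17), SE over 6 arrays. RPL7 (0.02 ± 0.17), RPL7L1 (0.10 ± 0.17), RPS20 (0.15 ± 0.17), RPL4 (0.19 ± 0.16) and LOC100351264 (0.19 ± 0.17) were among the lowest. The other probes of RPS20 gave 0.21 to 0.46. By limma 0 members were called (smallest adjusted p 0.148) and 1 feature, 0.00495% of the array; 11 members had an unadjusted p under 0.05, all higher, where 20.9% of features lay and 10.7% were higher. Under quantile normalization the median was 0.12 and 10 genes changed sign. With normexp background correction the median was 0.25, but that of all features became 0.17, so the members stood 0.08 above the array rather than 0.32.

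Between days 5 and 7, which shared a slide, 32 of the 35 genes were lower on day 7 (median -0.11, against 0.08 for all features), 24 of them in both treatments, as were 24.1% of all features. Both day 7 arrays lay below both day 5 arrays for 13 genes, against 15.7% of features. LOC100338464 was lowest, with 7.48 with HPD and 7.67 in control on day 7, against 7.83 and 8.28 on day 5, a difference of -0.48 ± 0.17 (SE, 6 arrays; limma adjusted p 0.609). RPL15 (-0.35), RPL26L1 (-0.32), RPL7 (-0.30), RSL24D1 (-0.28) and RPS18 (-0.20) followed. By limma 0 members and 0% of features were called, and 1 member, LOC100338464, had an unadjusted p under 0.05, where 8.06% of features lay and 3.31% were lower. Under quantile normalization the median was -0.04 and 12 genes changed sign.

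Most members were among the brightest features of the arrays. A mean level of 6 or more was found for 31 of the 35 genes and for 263 features outside the description rule. These 263 still include other cytosolic ribosomal protein genes, such as RPLP1 and RPS6, so they are not a comparison free of the family. Those 263 features had a median HPD minus control of -0.20 on day 3, -0.09 on day 5 and -0.04 on day 7, a median day 5 minus day 3 difference of 0.39, and a median day 7 minus day 3 difference of 0.38, against 0.31 for the members. In contrast, the 14952 features outside the rule with a mean level under 0 had medians of 0.20, 0.15 and 0.10 on the 3 days and -0.12 between days 5 and 3. The part of signal level in the members' differences was not tested.

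The levels of markers of other cell types were read on the same arrays. All 5 neutrophil markers of the list (MPO, S100A8, S100A9, LCN2 and CAMP) were lower with HPD on day 3, with a median difference of -1.92, and their mean level was 5.37 with HPD and 7.32 in control on day 3, 2.41 and 1.65 on day 5, and 1.79 and 0.33 on day 7. All 4 measured of 6 erythroid markers (ALAS2, HBA, SLC4A1 and RHAG) were lower with HPD on day 3 as well (median -1.32), and their mean level was 2.23 with HPD and 3.63 in control on day 3, 2.97 and 2.66 on day 5, and 2.35 and 2.17 on day 7. Of the macrophage markers (CD14, CD68, MSR1 and CSF1R), 3 of 4 were higher with HPD on day 3 (median 0.70), and their mean level was 2.15 with HPD and 1.53 in control on day 3, 1.68 and 0.86 on day 5, and 1.40 and 1.08 on day 7. On day 3 the red cell list was lower with HPD and the macrophage list higher, each as a difference between 2 arrays with no test. The mean level of the 4 measured of 6 matrix genes (COL1A1, COL1A2, COL3A1 and POSTN) was 6.10 with HPD and 5.92 in control on day 3, 6.92 and 7.47 on day 5, and 8.07 and 8.19 on day 7. For the 3 measured of 4 cycling-cell markers (MKI67, CDK1 and CCNB1) it was 3.53 with HPD and 3.97 in control on day 3, 3.76 and 3.75 on day 5, and 3.03 and 3.34 on day 7. The mean level of the 5 measured of 6 lymphocyte markers was -0.79 with HPD and -0.42 in control on day 3, -0.68 and -1.67 on day 5, and -1.66 and -1.90 on day 7. For the 2 measured of 4 muscle genes (ACTA1 and CKM) it lay between -0.99 and 0.52 on all arrays. Every measured marker was well above background on all 6 arrays, and their part in the members' differences was not tested. In such bulk tissue, fewer cells of a type and less RNA per cell cannot be told apart.

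Other genes of the protein-making machinery were set beside the members. A further 19 ribosomal protein genes, named through their accession and outside the description rule, had a median HPD effect of -0.18 (16 of 19 lower) and a median day 5 minus day 3 difference of 0.49 (16 higher). RPLP1, a P stalk protein, had 9.54 with HPD and 9.85 in control on day 3, 9.89 and 10.03 on day 5, and 9.98 and 9.999 on day 7. RPS6, the small-subunit substrate of S6 kinase, had 7.89 with HPD and 8.12 in control on day 3, 8.53 and 8.63 on day 5, and 8.31 and 8.44 on day 7. RPS3, RPS10 and RPS14 were the 3 that were higher with HPD in the mean (0.38, 0.39 and 0.39), and their probes were also the 3 with a mean level under 3. None of the 19 was called by limma, whether HPD was set against control or day 5 against day 3. With HPD against control, 1 gene had an unadjusted limma p under 0.05, where 8.51% of all features lay. This gene was the dim RPS14, which was higher with HPD. With day 5 against day 3, 10 of the 19 had such a p, where 16.3% of all features lay. These 19 genes were taken after their values were seen.

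**Figure D3:**
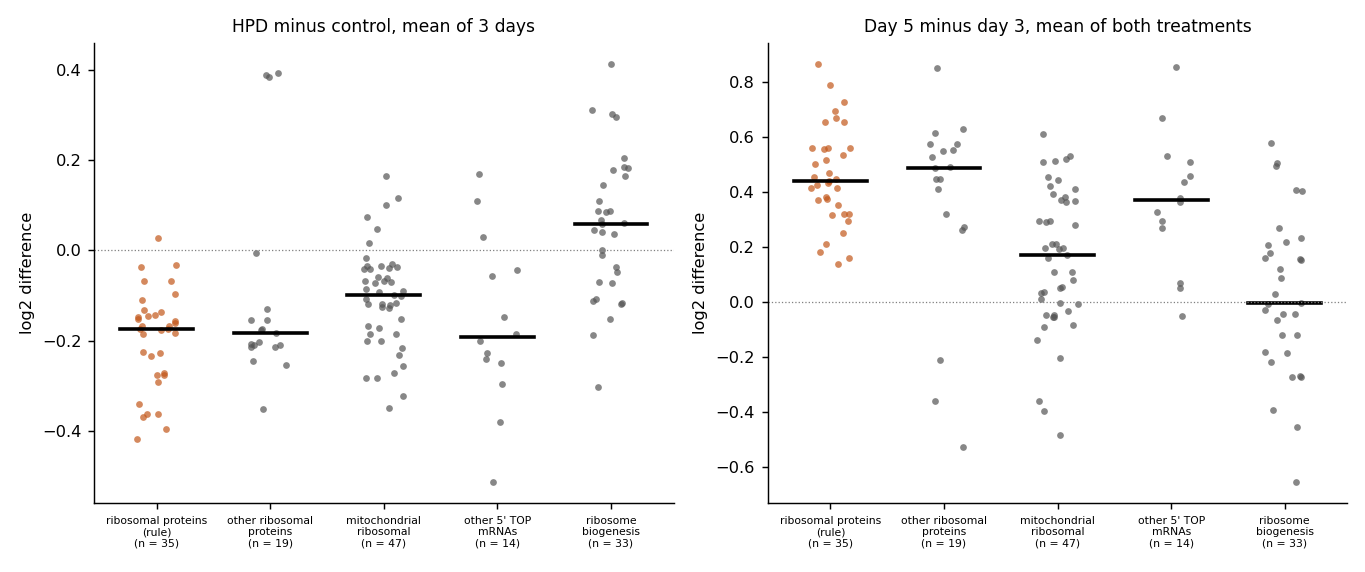
Log2 differences of single genes (points) and their medians (bars) for HPD minus control in the mean of 3 days (left) and day 5 minus day 3 in the mean of both treatments (right). The 35 ribosomal protein genes of the description rule (orange) have medians of -0.17 and 0.44, and the 33 biogenesis genes at the far right 0.06 and -0.00.

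Of the list of other TOP mRNAs, 14 of 21 genes were measured, of which 11 were lower with HPD in the mean of 3 days (median -0.19) and 13 were higher on day 5 than on day 3 (median 0.37). EEF1A1 (-0.38 ± 0.13), the elongation factor that brings transfer RNA, and EEF1G (-0.51 ± 0.13), a part of its exchange factor, had the lowest HPD effects, and EIF4B (0.17 ± 0.15) and NPM1 (0.11 ± 0.14) the highest (SE, 6 arrays). TPT1 (0.86 ± 0.19) and EEF1G (0.67 ± 0.16) had the highest day 5 minus day 3 differences. None of the 14 was called by limma in these comparisons. An unadjusted limma p under 0.05 was found for 2 of them for the HPD effect, against 8.51% of all features. For day 5 minus day 3 it was found for 4, against 16.3% of all features.

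Among mitochondrial ribosomal proteins, which are made in the cytosol for the organelle's own ribosome, 41 of 47 were lower with HPD in the mean of 3 days (median -0.10). Their day 5 minus day 3 median was 0.17, and that of day 7 minus day 3 was -0.07, with 30 of 47 lower. MRPL27 (-0.35 ± 0.13) and MRPS25 (-0.32 ± 0.14) had the lowest HPD effects (SE, 6 arrays). Of the ribosome biogenesis list, which holds factors that make and assemble ribosomes in the nucleolus, 33 of 40 genes were measured, 12 were lower with HPD and the median was 0.06. TAF1D (-0.30 ± 0.21) was its lowest gene and POLR1A (0.41 ± 0.14), the largest subunit of RNA polymerase I, its highest. No gene of either list was called by limma for the HPD effect, and 1 gene of each had an unadjusted p under 0.05, where 8.51% of all features lay.

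The regulators measured (10 of 14) were 7 higher and 3 lower with HPD, with a median of 0.05 and none called by limma (0 at an unadjusted p under 0.05, where 8.51% of all features lay). MYC, which drives transcription of ribosomal genes, had 2.22 with HPD and 2.54 in control on day 3, 2.90 and 2.75 on day 5, and 2.70 and 2.34 on day 7, with an effect of 0.06 ± 0.19. MTOR was at -0.02 ± 0.14 and LARP1 at 0.33 ± 0.16 (SE, 6 arrays). On day 5 minus day 3 MYC was at 0.44 ± 0.23, MTOR at -0.68 ± 0.17 and LARP1 at -0.72 ± 0.19. Of the 10 regulators, 8 were lower on day 5 (median -0.15) and none was called by limma (smallest adjusted p 0.231). An unadjusted limma p under 0.05 was found for 3 of the 10, and for 16.3% of all features. The slide also changed between these days.

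Among the probes found by the description rule, those of 1 gene mostly gave the same direction. For 21 of the 35 genes there were 2 to 10 probes, and in 18 of these all probes had 1 sign of the HPD effect, with a median span of 0.08 between the lowest and highest probe. Over all 115 probes, 107 were lower with HPD in the mean of 3 days and 112 were higher on day 5 than on day 3. Many probes of 1 gene overlap almost fully: the 10 of RPL10 start within 10 bases, and the 5 each of RPS13 and RPS7 within 4. Such probes read nearly the same letters, so their agreement is not independent evidence for the direction of a gene. The 10 probes of RPL10, which joins the large subunit late in its maturation, ran from -0.32 to -0.23. The 10 probes of RPS20, a protein of the small-subunit head, ran from -0.14 to 0.02, with 7 below 0 and 3 above. Outside the rule, 4 further features carried a member's symbol, with HPD effects of -0.11 for FAU, -0.16 for LOC100358359, -0.02 for RPS13 and 0.17 for RPS9.

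The 5 probes of LOC100351264 shown above gave 2 directions. Probe A_04_P035640, the brightest, had 7.02 with HPD and 7.46 in control on day 3, 7.47 and 7.75 on day 5, and 7.38 and 7.48 on day 7. Its neighbour A_04_P035641, shifted by 1 base, had 5.44 with HPD and 7.53 in control on day 3, 7.41 and 7.69 on day 5, and 7.37 and 7.43 on day 7, so the HPD array of day 3 stood apart by itself. Probes A_04_P035639, A_04_P035638 and A_04_P035637, which share their first letters with the end of the other pair, were higher with HPD in the mean, by 0.65, 0.57 and 0.51, but were far dimmer, with levels between -3.70 and -2.10. With the mean of all its probes in place of the brightest, the HPD effect of LOC100351264 was 0.13 and not -0.28. RPL7, a large-subunit protein, also had 1 probe in the other direction (0.31, against -0.29 for its brightest and -0.32 for the third). That probe lay between -0.67 and -0.06, the third between -0.48 and 0.18, and the brightest between 7.92 and 8.48.

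**Figure D4:**
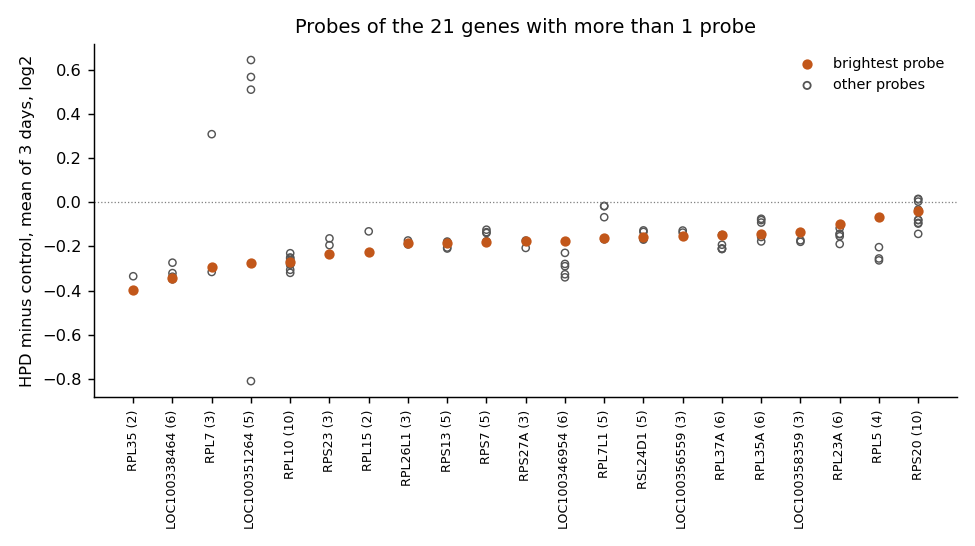
HPD minus control in the mean of 3 days (log2, vertical axis) for every probe of the 21 genes with more than 1 probe, with the brightest probe in orange and the others as open circles; the number of probes is in brackets. LOC100351264 spans -0.81 to 0.65 and RPL7 spans -0.32 to 0.31, while the 10 probes of RPL10 lie between -0.32 and -0.23.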

How the data were processed

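Single-dye Agilent arrays of 6 samples were used. The deposited values are spot intensity values from Feature Extraction 10.5.1.1, background-subtracted and detrended, per the file headers; no step between arrays is recorded. Here, log2 of the processed intensity minus the array's 75th percentile was taken, outlier spots were left out, and the brightest probe of each gene was kept. Probes were named through the array's columns and a RefSeq table of assembly mOryCun1.1, for names only; coordinates are oryCun2.

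Features well above background on at least 3 arrays (20209) were fitted with limma 3.58.1 (R 4.3.3) with day and treatment as terms (2 residual degrees of freedom, 2.47 from the prior) and Benjamini-Hochberg adjustment at 0.05 over all of them. Tested on simulated data with no day differences and with spreads shuffled over features, the fit returned the changes put in (2-fold or more). None of these changes passed the adjusted threshold. Day acts as a block; each rabbit carried both defect types, per the labels' protocols, but a shared source of the HPD and control RNA of 1 day is not given in the sources used here; p-values rest on array-to-array spread alone, and the number of arrays limits the precision. Tables used Python 3.11.15, pandas 2.3.3 and numpy 2.4.6, and plots matplotlib 3.10.9.

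Genes named are the called members, the 6 highest and lowest per comparison with 1 sign throughout, the 3 highest and lowest per day, the widest and narrowest ranges, fixed names and the ends of each list. The members and lists were chosen with earlier results of these data known, and the 19 further ribosomal protein genes after their values were seen.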

Additional observations from a re-analysis of the deposited data

How the results depend on the processing

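No member was called by limma under any of the 11 alternatives for the HPD effect (smallest adjusted p of a member 0.482 to 0.875) or under the alternatives for the day differences (smallest 0.0753). With 1 array per treatment and day the adjusted threshold also passed none of the HPD changes put into simulated data. The zeros for the HPD effect therefore say nothing about stability. That simulation held no day differences, so it cannot show how to read the zeros for the day differences. Quantile normalization brought the members' medians closer to 0, at -0.061 for the HPD effect, 0.11 for day 5 minus day 3, 0.12 for day 7 minus day 3, -0.040 for day 7 minus day 5 and -0.073 for day 3 alone; it turned the median change of the HPD difference with day to -0.057 and left 16 genes lower on all 3 days. The median shift moved the HPD effect to -0.31, its day 3, 5 and 7 values to -0.48, -0.24 and -0.27, and day 7 minus day 5 to -0.19; it moved all features alike, so that the members stood -0.27 from the array either way, against -0.09 under quantile normalization and -0.15 under normexp. Without the day as replicate block the HPD effect was -0.17, as with it, and no member was called; on the day contrasts, leaving treatment out gave 17 called features for day 5 minus day 3, 382 for day 7 minus day 3 and 3 for day 7 minus day 5. Normexp correction gave 299, 1033 and 2 called features on these contrasts and 142 for the change with day, where the fit reported above had 1, 1, 0 and 0, and the filter at all 6 arrays gave 5 for day 7 minus day 3. Leaving out 1 day each gave HPD medians from -0.23 to -0.12, and leaving out 1 treatment gave day 5 minus day 3 medians from 0.34 to 0.54, day 7 minus day 3 from 0.24 to 0.40 and day 7 minus day 5 from -0.12 to -0.10. The cause of these shifts was not tested.

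Signs of single genes turned as follows. For the HPD effect, quantile normalization gave LOC100342098 0.13, LOC100351893 0.027, LOC100356559 0.041, LOC100358359 0.034, RPL23A 0.020, RPL5 0.063 and LOC100352531 0.043; the median shift gave LOC100343047 -0.10, normexp gave RPS20 0.0087 and the mean of probes gave LOC100351264 0.13. Over the fits without 1 day, LOC100342098 ran from -0.11 to 0.0077, LOC100343047 from -0.067 to 0.13, LOC100352531 from -0.23 to 0.11 and RPS20 from -0.095 to 0.023. For day 5 minus day 3, quantile normalization gave LOC100356559 -0.067, RPL3 -0.037, RPL35A -0.17, RPL5 -0.055, RPL7 -0.097 and RPS20 -0.15. For day 7 minus day 3 it gave LOC100356559 -0.020, RPL15 -0.0052, RPL23A -0.14, RPL35A -0.27, RPL37A -0.010, RPL5 -0.10, RPL7 -0.30, RPS20 -0.30, RPS23 -0.085 and RPS27A -0.13. The median shift gave RPL3 0.015 for that contrast, normexp gave RPL3 0.019 and RSL24D1 0.048, and the mean of probes gave RSL24D1 0.051.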
